A study of Mus musculus with 6 samples.

Results

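Ifitm1, Ifitm2 and Ifitm3 encode the interferon-induced transmembrane proteins, small membrane proteins that hinder the fusion of enveloped viruses with the cell. They were examined in sorted mouse regulatory T cells (Treg), CD4 T cells defined by the factor Foxp3 that keep immune responses in check. All probe sets annotated with 1 of these symbols alone were taken, which gave 3 probe sets, 1 for each gene, among 20380 probe sets with a single symbol that represent 12393 genes. RNA came from CD4+YFP+ cells of mice on the C57BL/6 background and was hybridised to 6 arrays. The 3 control arrays carry B6_WT titles and the genotype Foxp3cre, in which the recombinase Cre is made in cells that express Foxp3. The 3 arrays called USP7-titled here carry USP7 titles, and the series text gives them floxed Usp7 with Foxp3cre, so that Usp7, a deubiquitinase, is deleted in Treg. Their genotype field instead names fl-HDAC11/Foxp3cre, a conflict that the labels do not resolve. Both groups share the Foxp3cre allele, and no treatment, age or sex is given. The labels do not say whether each sample came from its own animal, so the errors measure the spread between these samples, which may be technical.

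Interferons bind receptors that act through JAK kinases, and the transcription factors so activated switch on antiviral genes by binding a short promoter element, the interferon-stimulated response element (ISRE). Interferon gamma also acts on a second element, the gamma-activated sequence (GAS). IFITM proteins are among the products of both pathways. IFITM3 resides mainly in endosomes and lysosomes and IFITM1 mainly at the cell surface, and besides lymphocytes many other cell types make them, macrophages and endothelial cells included.

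The genes lie side by side on chromosome 7 in the order Ifitm2, Ifitm1 and Ifitm3, with Ifitm1 on the plus strand and the others on the minus strand. Their promoter windows, from 250 bases before to 50 bases after the transcript start in RefSeq (GRCm38.p6), are shown because they differ in the letters that interferon-activated factors recognise. Each window is written 5′ to 3′ along its gene, and capitals mark matches to the ISRE core (GAAA, any 2 bases, then GAAA), searched on both strands. The windows are chr7:140955912-140956211 for Ifitm2, chr7:140967826-140968125 for Ifitm1 and chr7:141010695-141010994 for Ifitm3.
Ifitm2: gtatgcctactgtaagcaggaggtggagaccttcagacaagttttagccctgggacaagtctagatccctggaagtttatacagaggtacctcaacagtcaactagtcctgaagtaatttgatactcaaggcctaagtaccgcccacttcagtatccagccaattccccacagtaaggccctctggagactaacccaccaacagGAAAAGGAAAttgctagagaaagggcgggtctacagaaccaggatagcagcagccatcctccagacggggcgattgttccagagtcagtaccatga
Ifitm1: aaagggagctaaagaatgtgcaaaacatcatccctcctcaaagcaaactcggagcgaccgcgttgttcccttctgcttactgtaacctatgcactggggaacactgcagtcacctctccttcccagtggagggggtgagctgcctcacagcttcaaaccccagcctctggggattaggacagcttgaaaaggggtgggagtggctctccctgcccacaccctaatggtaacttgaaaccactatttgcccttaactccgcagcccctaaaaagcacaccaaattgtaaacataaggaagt
Ifitm3: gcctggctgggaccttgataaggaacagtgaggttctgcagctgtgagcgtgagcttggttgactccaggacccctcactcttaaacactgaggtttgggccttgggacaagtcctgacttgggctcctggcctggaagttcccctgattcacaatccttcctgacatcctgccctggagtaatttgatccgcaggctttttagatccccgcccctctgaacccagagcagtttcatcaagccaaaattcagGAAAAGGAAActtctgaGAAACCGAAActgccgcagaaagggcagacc

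The window of Ifitm3 held 2 ISRE core matches, GAAAAGGAAA at bases 3 to 12 and GAAACCGAAA at bases 20 to 29 after the start. Ifitm2 held 1, GAAAAGGAAA, at bases -46 to -37. Ifitm1 held 0, which says only that these letters are not in this window. Of 32851 distinct promoter windows of the same length, 3.44% held at least 1 such match and 0.225% held 2 or more. The GAS core TTCNNNGAA, present in 8.30% of windows, was found in the Ifitm3 window alone of the 3, at bases 14 to 22, where it overlaps the second ISRE match. Ifitm2 and Ifitm3 shared an unbroken run of 13 bases, caggaaaaggaaa, which contains their common match and begins at base -49 in Ifitm2 and base -1 in Ifitm3. Over the whole windows the alignment of Ifitm2 with Ifitm3 was 45.2% identical, close to the 42.9% of Ifitm1 with Ifitm2 and below the 48.2% of Ifitm1 with Ifitm3. These matches are descriptions of sequence, and other transcript starts of the genes were not examined.

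Transcripts of all 3 genes were higher in every USP7-titled array than in any control array. The genes were selected on their expression difference between these same groups, known from earlier results, so their levels and changes are given as a description, without a test. Values are log2 expression as the authors deposited it, where a difference of 1 is a 2-fold difference, and changes are USP7-titled minus control with the standard error (SE) of a linear model fitted with limma to all single-symbol probe sets.

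Ifitm2 differed most. Its log2 expression was 8.04, 7.86 and 7.91 in control replicates 1 to 3 and 10.67, 10.63 and 10.51 in USP7-titled replicates 1 to 3. The groups were thus 2.47 apart at their nearest arrays, while the arrays of a group lay within 0.180 of each other in controls and 0.164 in USP7-titled samples. Mean log2 expression was 7.93 ± 0.09 in controls against 10.60 ± 0.08 in USP7-titled arrays (SD, n = 3 each), which is a change of 2.67 (SE 0.10, 95% interval 2.45 to 2.89), or 6.36-fold. Of the 12393 genes, 0.379% had a larger rise.

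Ifitm1 had the widest spread between replicates. Its log2 expression read 6.44, 7.08 and 7.06 in controls against 8.89, 9.11 and 8.77 in USP7-titled arrays. Control replicate 1 stood below the other controls, and the nearest arrays of the groups were still 1.69 apart. The means were 6.86 ± 0.36 and 8.92 ± 0.17 (SD, n = 3 each), which is a change of 2.06 (SE 0.18, 95% interval 1.67 to 2.46), or 4.18-fold. Without control replicate 1 the change was 1.85, the smallest value from leaving out any 1 array. A rise larger than that of Ifitm1 was seen in 0.742% of genes.

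Ifitm3 changed least of the 3. Controls read 9.21, 9.32 and 9.29 on the log2 scale and USP7-titled arrays 10.86, 10.74 and 11.02. The nearest arrays of the groups were 1.43 apart, with a range of 0.112 within controls and 0.272 within USP7-titled arrays. The means were 9.27 ± 0.06 and 10.87 ± 0.14 (SD, n = 3 each), which is a change of 1.60 (SE 0.09, 95% interval 1.40 to 1.8), or 3.03-fold. A larger rise was seen in 1.36% of genes.

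**Figure D1:**
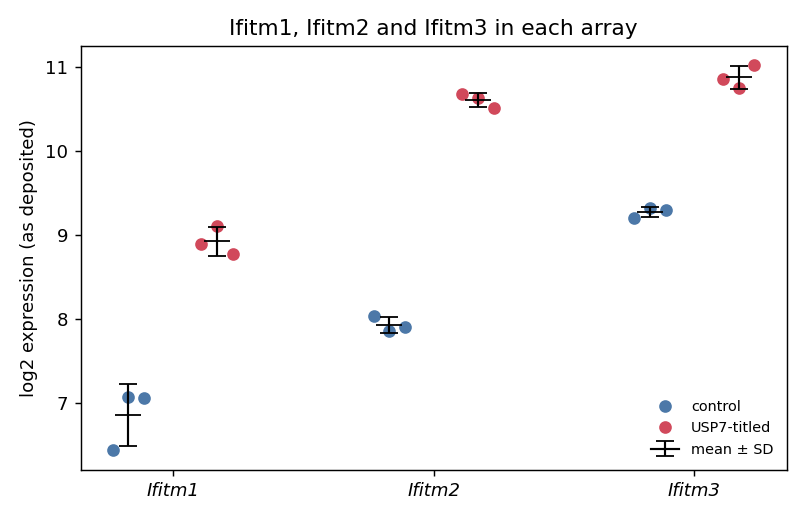
Log2 expression of Ifitm1, Ifitm2 and Ifitm3 in each of the 3 control (blue) and 3 USP7-titled (red) arrays, with the mean and SD of each group in black. For each gene the USP7-titled arrays lie above all controls, with gaps of 1.69, 2.47 and 1.43 between the nearest arrays of Ifitm1, Ifitm2 and Ifitm3, and control replicate 1 of Ifitm1 lies below the other controls.

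All 3 probe sets passed the threshold as higher in the fit over 20380 probe sets, in which 16.3% of probe sets did so. In either direction 33% of probe sets passed. All 3 also belonged to the genes whose groups did not overlap, 45.6% of the 12393 genes, or 20.9% counting only those with USP7-titled arrays higher. Likewise all 3 belonged to the 3.12% of genes called higher by at least 2-fold. Nothing is read from these counts, since the genes were picked with the comparison known. Set against each gene's control mean, the 3 USP7-titled arrays stood at 6.67, 6.47 and 5.96 times for Ifitm2, at 4.09, 4.75 and 3.76 times for Ifitm1 and at 3.0, 2.77 and 3.35 times for Ifitm3. The order of the changes, Ifitm2 above Ifitm1 above Ifitm3, was the same in each USP7-titled array. The change of Ifitm2 exceeded that of Ifitm3 by 1.07 on the log2 scale, with an SD of the within-array difference of 0.151 in controls against 0.209 in USP7-titled arrays. This difference was larger in each USP7-titled array than in any control. Ifitm2 exceeded Ifitm1 by 0.606 (SD 0.454 and 0.141), and Ifitm1 exceeded Ifitm3 by 0.463 (SD 0.306 in each group). For each of these pairs the arrays of the groups overlapped, so neighbours in the order were not separated beyond their spread. The genes are close paralogs, and a probe of one can bind transcript of another. Where the probes lie was not analysed here, so the share of each gene in a probe set's signal is uncertain.

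Several facts of these arrays stand beside every comparison. Array medians of gene probe sets were 7.97 to 8.02 on the log2 scale, and Pearson's r over these probe sets was 0.9913 to 0.9956 within groups and 0.9688 to 0.9739 between groups. Usp7 was lower in USP7-titled arrays by 1.01 (SE 0.07), from 11.68 ± 0.06 to 10.67 ± 0.11 (limma adjusted p = 1.32e-06). Hdac11 was lower by 0.58 (SE 0.16, limma adjusted p = 0.0154), a call that ended without control replicate 1 (adjusted p = 0.0742) or without USP7-titled replicate 2 (adjusted p = 0.0559), or with probe sets averaged, the second probe set changing by -0.22. Foxp3, read by 1 probe set, fell by 5.98 (SE 0.13, limma adjusted p = 6.71e-10), from 12.98 ± 0.15 to 7.004 ± 0.25. The name Treg for the USP7-titled samples thus rests on the CD4+YFP+ sort, not on this transcript. The X-inactivation RNA Xist fell by 7.20 and the Y-linked Eif2s3y rose by 5.65, so that sex and group cannot be told apart. Of all genes 17% were called higher and 15.9% lower, together 32.9%. When the arrays were scaled to their hybridization spikes (called spike scaling below), calls went from 2102 higher and 1976 lower to 2968 and 944, with the median change of all genes moving from -0.05 to 0.11. In that setting Ifitm1 changed by 2.22, Ifitm2 by 2.83 and Ifitm3 by 1.76. As arrays measure bulk RNA, more cells of a type and more RNA per cell cannot be told apart.

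The genes around the Ifitm block did not move as one. The 5 protein-coding genes on either side were taken from the reference order, and 7 of these 10 had a probe set. Nearest on the side of Ifitm3 lies Ifitm6, a paralog, which read 5.76, 5.77 and 5.51 in controls against 5.87, 6.53 and 6.03 in USP7-titled arrays. Its groups were 0.105 apart at their nearest arrays, and its change of 0.47 (SE 0.17) did not pass (limma adjusted p = 0.0593). Without USP7-titled replicate 1 it passed, and its value is given with the alternatives. Pgghg, which encodes a glucosidase acting on collagen and is the nearest measured gene on the side of Ifitm2, fell by 1.05 (SE 0.14, limma adjusted p = 0.00015). Its log2 expression was 9.45 to 9.75 in controls against 8.44 to 8.87 in USP7-titled arrays. Psmd13, a subunit of the proteasome cap, rose by 0.63 (SE 0.08, limma adjusted p = 0.000176). Pkp3, a plakophilin of desmosomes, rose by 0.25, and Sigirr, an inhibitory receptor of the interleukin-1 receptor family, fell by 0.28. Each of these last 2 calls ended when any 1 of 4 arrays was left out. For Pkp3 these were control replicates 1 and 2 and USP7-titled replicates 1 and 3 (adjusted p = 0.0521 to 0.07), and for Sigirr control replicates 1 and 3 and USP7-titled replicates 1 and 2 (adjusted p = 0.0528 to 0.0693). Sigirr also did not pass under spike scaling (-0.12, adjusted p = 0.429), nor Pkp3 with quantile normalization (adjusted p = 0.0651). A second Pkp3 probe set, at 0.25, did not pass (adjusted p = 0.142). Cox8b (-0.34, SE 0.13, limma adjusted p = 0.0559) and the inflammasome sensor Nlrp6 (-0.04, SE 0.16, limma adjusted p = 0.875) did not pass. Ifitm5, B4galnt4 and Ano9 were not analysed here.

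**Figure D2:**
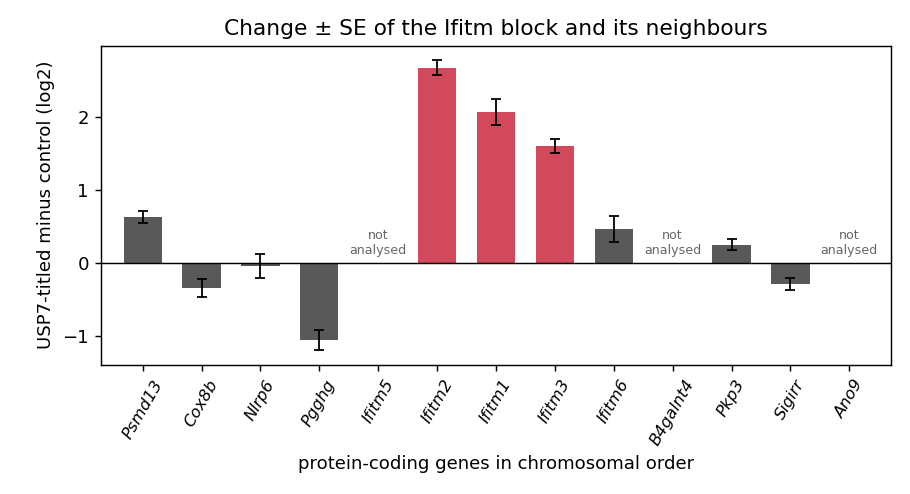
Change in log2 expression, USP7-titled minus control, with its SE for the Ifitm genes (red) and the 5 protein-coding genes on each side (grey) in chromosomal order, not to scale. The Ifitm genes change by 1.60 to 2.67, while the measured neighbours lie between -1.05 and 0.63.

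Outside the block, the wider CD225 family to which the Ifitm genes belong had 3 further measured members of 13 listed. Limma called 0 of them higher (1 at an unadjusted p under 0.05), 1 lower and 2 neither. The shares over all genes were 17% higher and 15.9% lower. Prrt1, a membrane protein known from synapses, fell by 1.36 (SE 0.15, limma adjusted p = 3.75e-05) from 7.74 ± 0.09 to 6.38 ± 0.26 (SD, n = 3 each). Ifitm10 read 8.17 ± 0.15 and 8.10 ± 0.02 (SD, n = 3 each), which is a change of -0.07 (SE 0.12, limma adjusted p = 0.675), and Ifitm6 is given above.

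Interferon ligands were examined next. Of 9 measured members of 16 listed, 1 rose (11.1%, against 17% of all genes) and 2 fell (15.9% of all genes fell). Ifng, which encodes interferon gamma, read 7.44, 6.90 and 7.57 in controls against 9.20, 8.68 and 8.84 in USP7-titled arrays. Its groups did not overlap, and it rose by 1.60 (SE 0.19, limma adjusted p = 6.52e-05), from 7.30 ± 0.36 to 8.91 ± 0.27 (SD, n = 3 each). The type I interferon gene Ifna1 fell by 0.78 (SE 0.14, limma adjusted p = 0.00114). Ifnab fell by 0.43, a call that ended without any 1 array other than control replicate 3 (adjusted p = 0.0698 to 0.174) and under spike scaling. Ifnb1, which encodes interferon beta, changed by -0.01 and did not pass. The 6 uncalled ligands, Ifnb1 among them, changed by -0.23 (Ifna2) to 0.18 (Ifna5).

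Receptors and signalling proteins of the interferon pathways were lower more often than higher. Of 22 measured, 10 were lower (15.9% of all genes were), 2 higher (9.1%, against 17% of all genes) and 10 uncalled. The median change was -0.19 against -0.05 for all genes. Usp18, Stat2 and Irf7 also belong to the type I interferon-stimulated list below, and Irf1 and Socs1 to the interferon gamma-induced list. The falls of Usp18, Stat2 and Irf1 are thus counted in both places. Under spike scaling 6 were lower and 4 higher. Usp18, a feedback inhibitor of the type I receptor, fell by 0.93 (SE 0.11, limma adjusted p = 6.75e-05), from 9.55, 9.55 and 9.58 in controls to 8.68, 8.77 and 8.44 in USP7-titled arrays. Ifngr2, a chain of the interferon gamma receptor, fell by 0.61 (SE 0.09, limma adjusted p = 0.000258), whereas its partner Ifngr1 changed by 0.23 and did not pass. The kinase Jak1, used by both receptors, fell by 0.60 (SE 0.07, limma adjusted p = 4.61e-05), and Il10rb, a chain of the receptor for interferon lambda, by 0.52 (SE 0.12, limma adjusted p = 0.00478). The type I receptor chains Ifnar1 and Ifnar2 fell by 0.40 and 0.39, the former not past the threshold under spike scaling. The 2 members that rose were the phosphatase Ptpn11 (0.37, not past the threshold with probe sets averaged) and the kinase Jak2 (0.29). The call of Jak2 ended without control replicate 1 or 2 or USP7-titled replicate 1 or 3 (adjusted p = 0.0817 to 0.154). It also ended with quantile normalization, with probe sets averaged and without the variance trend. Irf7 and Irf9, factors that switch on interferon-stimulated genes, changed by 0.03 and -0.14 and did not pass.

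Other genes known to be induced by type I interferon went both ways. That list had 41 measured members, with 6 higher (14.6%, against 17% of all genes), 14 lower (15.9% of all genes were lower), 21 uncalled and a median change of -0.18. Scaled to the spikes, 8 were higher and 9 lower. Oas1a, an enzyme that detects viral RNA, fell by 0.99 (SE 0.09, limma adjusted p = 1.13e-05) and its relative Oasl1 by 0.99 (SE 0.15, limma adjusted p = 5e-04). Slfn8, a Schlafen protein, fell by 1.04 (SE 0.09, limma adjusted p = 7.14e-06). The antiviral proteins encoded by Ifit1, Ifit2 and Ifit3 had lower transcript by 0.47, 0.58 and 0.47. Mx1 and Mx2, GTPases that block viral nucleocapsids, changed by -0.25 and -0.33 and did not pass. The DNA sensor gene Ifi204 was also called higher (limma adjusted p = 0.000247), at 2.82, 2.59 and 2.82 in controls against 3.89, 3.64 and 4.34 in USP7-titled arrays. Its controls lay near the lowest gene value of all arrays, 2.21, so the size of its change is uncertain. Of the other members that rose, Bst2 changed by 0.63 and Oas3, a relative of Oas1a, by 0.60.

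In the list of genes induced by interferon gamma, 28 members were measured. Of these 6 were higher (21.4%, against 17% of all genes), 7 lower (15.9% of all genes were lower) and 15 uncalled. The median change was -0.05, equal to that of all genes. Under spike scaling 7 were higher and 1 lower. Ifi30, a lysosomal thiol reductase of antigen processing, read 9.28, 9.58 and 9.67 in controls against 11.09, 11.08 and 11.18 in USP7-titled arrays. It rose by 1.61 (SE 0.10, limma adjusted p = 6.27e-07), about as much as Ifitm3. The chemokine Cxcl9 rose by 1.24 (SE 0.25, limma adjusted p = 0.003) from 4.31 ± 0.28 (SD, n = 3). The guanylate-binding protein Gbp2b fell by 2.88 (SE 0.20, limma adjusted p = 1.2e-06) and Cd274, which encodes the checkpoint ligand PD-L1, by 0.46 (SE 0.10, limma adjusted p = 0.00371), the latter not past the threshold under spike scaling. Over the 68 distinct genes of both interferon-induced lists, Ifi30 alone had a larger rise than Ifitm3, and 0 had a larger rise than Ifitm1 or Ifitm2, while the fall of Gbp2b was larger in size than any of the Ifitm changes.

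**Figure D3:**
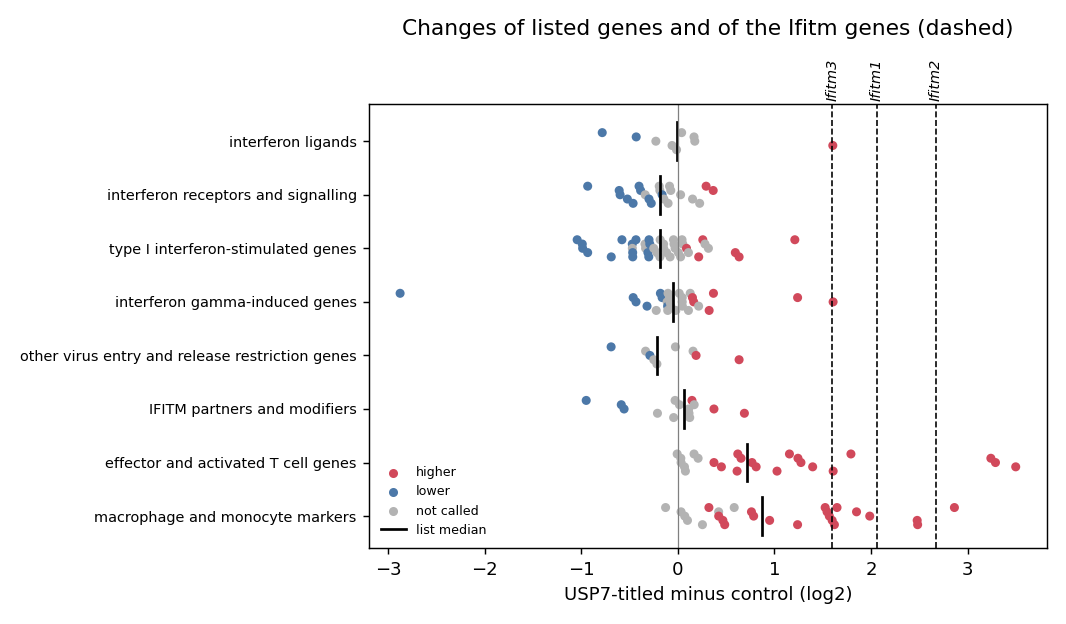
Change in log2 expression of each measured gene (points) in 8 lists, red where called higher, blue where called lower and grey where not called, with the list median as a black bar. Dashed lines mark Ifitm3 at 1.60, Ifitm1 at 2.06 and Ifitm2 at 2.67; the type I interferon-stimulated genes, whose median is -0.18, all lie to their left.

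The ISRE letters were set beside these changes. Among 9887 tested genes with a promoter window, 380 held the ISRE core, and of these 18.68% were called higher and 18.95% lower, against 17.29% and 16.32% of all 9887. Of the interferon-induced genes of both lists with a window, 22 held the ISRE core, of which 3 rose and 9 fell with a median of -0.13, and 28 did not, of which 6 rose and 10 fell with a median of 0.02.

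Of other genes that limit entry, release or replication of viruses, 2 of 9 measured were called higher and 2 lower, at a median change of -0.22. Over all genes 17% were higher and 15.9% lower, and nothing is read from these counts. Bst2, Mx1, Mx2 and Trim30a of this list also belong to the type I interferon-stimulated list. Bst2, the tetherin gene, rose by 0.63 (SE 0.07, limma adjusted p = 6.77e-05). The deaminase gene Apobec3 rose by 0.19 (SE 0.05, limma adjusted p = 0.0163), but not without USP7-titled replicate 3 (adjusted p = 0.0654) or with quantile normalization. Trim30d fell by 0.69 (SE 0.12, limma adjusted p = 0.00105). Samhd1, which depletes nucleotides, fell by 0.29 (SE 0.04, limma adjusted p = 0.000112), but did not pass under spike scaling or with probe sets averaged. Among proteins that bind or modify IFITM proteins, 14 were measured, with 3 higher (21.4%, against 17% of all genes) and 3 lower (15.9% of all genes were lower). Their median change was 0.06. Zdhhc20, a palmitoyl transferase that acts on IFITM3, fell by 0.95 (SE 0.10, limma adjusted p = 4.51e-05), from 11.01 ± 0.20 to 10.06 ± 0.13 (SD, n = 3 each). The methyltransferase gene Setd7 fell by 0.56 (SE 0.16, limma adjusted p = 0.0202). It did not pass without control replicate 2 (adjusted p = 0.0903), under spike scaling (adjusted p = 0.0668) or without the variance trend (adjusted p = 0.0535). The complement receptor gene Cr2 fell by 0.59 (SE 0.12, limma adjusted p = 0.0037). Ap2s1, a subunit of the AP-2 adaptor that takes IFITM3 into endosomes, rose by 0.69 (SE 0.09, limma adjusted p = 0.000124), while Ap2m1, the subunit that reads the sorting signal, changed by 0.12 and did not pass. Cd81, a tetraspanin found with IFITM1 at the cell surface, rose by 0.37. The remaining rise, that of Vcp (0.15), turned to -0.26 when probe sets of the gene were averaged, and its call ended without any 1 array other than control replicate 1 (adjusted p = 0.0603 to 0.135). Nedd4, the ubiquitin ligase of IFITM3, changed by -0.04 and did not pass.

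Markers of other cells were measured because several of these cells make IFITM proteins. Of 19 T cell and Treg identity genes limma called 12 lower and 0 higher (15 lower and 0 higher at an unadjusted p under 0.05), at a median change of -0.17. Over all genes 15.9% were lower and 17% higher. Under spike scaling 6 of the 19 were lower and 2 higher. Beside Foxp3, the neuropilin gene Nrp1 fell by 1.11, the integrin gene Itgae by 0.83 and the adaptor gene Lat by 0.40. Cd3d, a chain of the T cell receptor complex, read 12.99 in controls against 12.92 in USP7-titled arrays, and Cd2 12.93 against 12.87, and neither passed. The summed signal of the list, on the log2 scale, was 16.55 to 16.60 in controls against 16.30 to 16.31 in USP7-titled arrays. Bright genes weigh most in it, and Foxp3, among the brightest in controls at 12.98, fell by 5.98. A sum without Foxp3 was not taken, so the part of Foxp3 in the lower sum was not measured. Whether T cell RNA fell in general was not tested. The other called falls were Gpr83 (-0.38), Ctla4 (-0.36), Cd28 (-0.30), Ikzf2 (-0.21), Cd5 (-0.21), Il2ra (-0.17), Tnfrsf18 (-0.12) and Cd3e (-0.11). Cd4 changed by 0.01, Thy1 by 0.08 and Tnfrsf4 by 0.03, and none of these 3 passed.

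Among 26 macrophage and monocyte markers limma called 19 higher (73.1%, against 17% of all genes) and 0 lower (0 lower also at an unadjusted p under 0.05). Their median change was 0.87. The summed signal of this list was 12.30 to 12.48 on the log2 scale in controls against 13.36 to 13.56 in USP7-titled arrays, higher in every USP7-titled array. The complement gene C1qb read 7.21, 6.38 and 7.46 in controls against 9.74, 9.99 and 9.91 in USP7-titled arrays, a rise of 2.86 (SE 0.23, limma adjusted p = 3.34e-06). The lysozyme gene Lyz1 and the complement gene C1qc each rose by 2.48 and Csf1r, the receptor of macrophage growth factor, by 1.99 (SE 0.34, limma adjusted p = 0.000913). Other probe sets of these genes differed: those of Lyz1 changed by 2.31 and 0.0027, and those of Csf1r by 1.21 and 0.03. Of other defining markers, chosen after their values were seen, the integrin gene Itgam changed by -0.13 and Cd68 by 0.42, and neither passed. Cd68 was called higher under spike scaling (0.58, limma adjusted p = 0.0246), with array weights (adjusted p = 0.0353) and without the dimmest probe sets (adjusted p = 0.0473). Adgre1, a surface marker of mouse macrophages, rose by 0.49, a call that ended without any 1 array other than USP7-titled replicate 3 (adjusted p = 0.0502 to 0.2). The protease gene Ctsd and the transcription factor gene Cebpb rose by 0.32 and 0.76, with a second Cebpb probe set at 0.17 that did not pass. No detection calls were used, so a dim marker cannot be called absent. The part of these cells in the Ifitm signal was not tested.

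**Figure D4:**
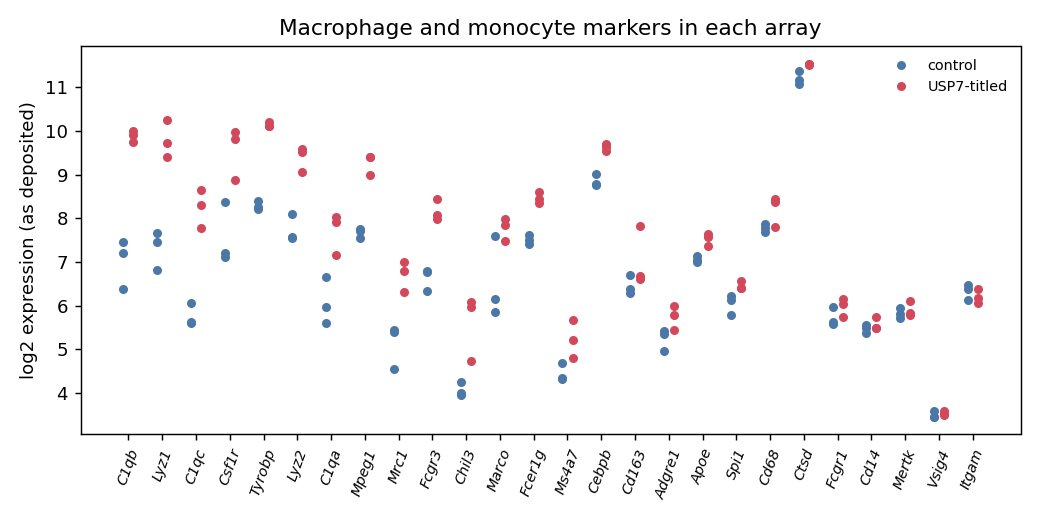
Log2 expression of the 26 measured macrophage and monocyte markers in the 3 control (blue) and 3 USP7-titled (red) arrays, ordered from the largest rise to the largest fall. C1qb rises by 2.86 at the left, and Itgam at the right changes by -0.13.

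The other marker lists had smaller median changes than the macrophage and monocyte list. Their counts stand beside 17% of all genes called higher and 15.9% called lower. Of 13 neutrophil markers 3 rose and limma called 0 lower (1 at an unadjusted p under 0.05), at a median change of -0.06. The rises were S100a8 by 2.07, S100a9 by 1.57 and Ngp by 0.89. The 10 uncalled members changed by -0.27 (Mmp9) to 0.41 (Ltf), with Prtn3 at -0.24, Elane at -0.18, Mpo at -0.13 and Camp at 0.30. The call of Ngp ended without control replicate 3 or USP7-titled replicate 2 or 3 (adjusted p = 0.0515 to 0.0619). Endothelial and stromal markers, from cells with abundant IFITM3, had 1 of 18 higher, Cdh5 (0.68), and 1 lower, Pecam1 (-0.66), with a median of 0.07 and a summed log2 signal of 11.16 to 11.29 in controls against 10.86 to 11.06 in USP7-titled arrays. Pecam1 did not pass without control replicate 2 (adjusted p = 0.0544). Of 10 platelet and erythroid markers limma called 0 higher and 0 lower (2 lower at an unadjusted p under 0.05, and 1 lower called with probe sets averaged), the largest change being that of Itga2b (-0.31). The dendritic cell list, of 12 genes, had 5 called higher, among them Tcf4 (1.0) and Clec10a (0.98), and 2 called lower, Zbtb46 (-0.96) and Ccr7 (-0.24). The other probe sets of Tcf4 ranged from 0.05 to 1.01, and those at 0.05, 0.11 and 0.13 did not pass. The other probe sets of Zbtb46 changed by -0.39, which did not pass, and -1.02. The calls of Irf8 (0.37) and Itgax (0.42) each ended without any 1 of 5 arrays, all but control replicate 2 for Irf8 and all but USP7-titled replicate 3 for Itgax. That of Ccr7 ended without control replicate 3 or USP7-titled replicate 2 or 3. It also ended without the variance trend and under spike scaling, where its change was -0.08. B and plasma cell markers had 7 of 16 higher, led by Ly86 (1.2), Ms4a1 (1.0) and Pou2af1 (0.92), and 1 lower, Cr2. The median change of this list was 0.24. Its rises also held the MHC class II genes H2-Eb1 (0.91), H2-Ab1 (0.85) and H2-Aa (0.82). The 8 uncalled members changed by -0.38 (Fcer2a) to 0.25 (Jchain), with Cd79a and Pax5 each at -0.29 and Cd79b at 0.23. Ms4a1 did not pass without control replicate 1 (adjusted p = 0.0815) or USP7-titled replicate 2 (adjusted p = 0.0665), and its second probe set changed by 0.34 and did not pass. The list for CD8 T and NK cells held 5 higher genes of 16, among them Gzma (3.21), Nkg7 (2.76) and Ccl5 (1.31), and 2 lower, Xcl1 (-0.80) and Prf1 (-0.45, not past the threshold with probe sets averaged), while Cd8a changed by 0.02 and did not pass. Summed log2 signal of that list was 12.18 to 12.25 in controls against 13.28 to 13.35 in USP7-titled arrays. This sum weighs bright genes most, among them Nkg7 (9.47 in controls, 12.24 in USP7-titled arrays) and Ccl5 (10.04 and 11.36). The 9 uncalled members changed by -0.52 (Eomes) to 0.26 (Klra8), with Cd8b1 at -0.23, Klrk1 at -0.26 and Ncr1 at -0.15. The part of any of these cells in the Ifitm signal was not tested.

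Of 24 genes of effector and activated T cells limma called 17 higher (70.8%, against 17% of all genes) and 0 lower (0 lower also at an unadjusted p under 0.05). Their median change was 0.71. Lgals3, which encodes galectin-3, rose by 3.50, the protease gene Gzmb by 3.29, the annexin gene Anxa2 by 3.24 and the inhibitory receptor gene Havcr2, known as TIM-3, by 1.79. In this list 5 members had a larger change than Ifitm3, and in the macrophage and monocyte list 7. Other Anxa2 probe sets changed by -0.24 and 0.68, and Havcr2 has a single probe set.

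The genes with array profiles most like those of the Ifitm genes were named by the root mean square distance between log2 profiles over the 6 arrays, after each gene's mean was removed. Since the groups form the main difference between these arrays, the distance reflects mostly the size of the change. For Ifitm3 the nearest were Hbb-b2 at 0.070, Adam8 at 0.073, Cxcr6 at 0.074, H1f4 at 0.074 and Cdkn2c at 0.080. Adam8 encodes a leukocyte metalloprotease, Cxcr6 a chemokine receptor of activated T cells and Cdkn2c a cell cycle inhibitor. The globin gene Hbb-b2, which is not in the platelet and erythroid list, rose by 1.51 (SE 0.14, limma adjusted p = 1.21e-05). Its mean was 5.19 in controls and 6.70 in USP7-titled arrays. A second Hbb-b2 probe set changed by -0.09 and did not pass. For Ifitm2 the nearest were Cox6b2 at 0.094, the cytotoxic granule gene Nkg7 at 0.127, the kinetochore gene Nuf2 at 0.127, the cell death gene Pmaip1 at 0.148 and the histone chaperone gene Asf1b at 0.149. For Ifitm1 they were Ppic at 0.108, the myeloid lectin gene Clec4n at 0.139, Havcr2 at 0.149, and Pole and Prim1 of DNA replication at 0.153 and 0.183. A second Clec4n probe set changed by 0.81 and did not pass. Ppic, a cyclophilin, shared with Ifitm1 a low value in control replicate 1, at 7.36 against 7.81 and 8.07 in the other controls. The Ifitm genes were not each other's nearest: Ifitm1 was 0.340 from Ifitm3 and 0.409 from Ifitm2, and Ifitm2 was 0.555 from Ifitm3.

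**Figure D5:**
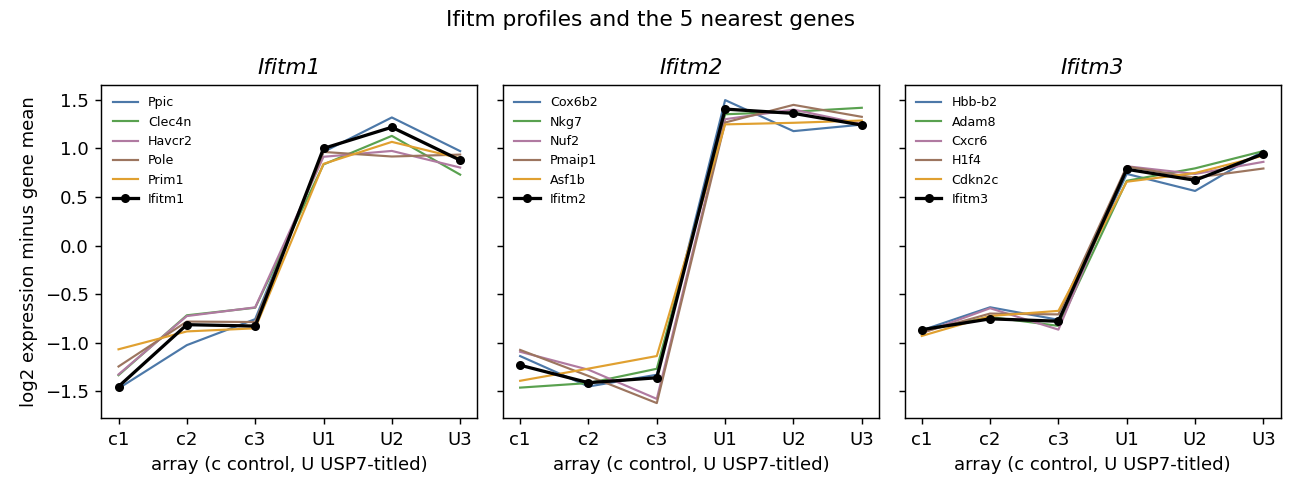
Log2 expression minus the gene's own mean in 3 control (c1 to c3) and 3 USP7-titled (U1 to U3) arrays for each Ifitm gene (black) and the 5 genes nearest to it (colours). Lines only join the values of a gene. The step between groups is largest for Ifitm2 and smallest for Ifitm3, and control replicate 1 is the lowest Ifitm1 value.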

How the data were processed

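Expression was measured on 6 arrays, 3 per group, from 100 ng of total RNA per sample labelled with biotin, per the labels' protocols. Each value is the log2 expression of a probe set, as deposited by the authors. The base was inferred from their range of 2.21 to 14.47. For the summarisation, normalization and genome build the sources used here give nothing. Array distributions were nearly the same, so a change in total RNA per cell would be hidden. No further normalization was applied.

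The 64 array controls among the 22690 probe sets were left out. The platform annotation gave 20380 a single symbol, 691 several and 1555 none, and 20351 of the first matched the reference gene table (GRCm38.p6) by gene identifier. Each of 12393 genes was represented by its probe set of highest mean across the 6 arrays. The comparison used limma 3.58.1 under R 4.3.3 (lmFit, then eBayes with trend) and was two-sided. P-values were adjusted by Benjamini-Hochberg over the genes tested, with calls at 0.05. The number of arrays limits the precision, and the median residual SD was 0.136. An exact permutation test of 3 against 3 arrays cannot go below 0.1 and was not used.

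The Ifitm genes, the lists and the naming rule were chosen with earlier results of these data known. The rule took every measured CD225 relative, from each other list up to 4 of the called genes that changed most (where none was called, the 2 of smallest p) and, from marker lists, the 2 with the highest mean, plus the neighbours, the nearest profiles and Usp7, Hdac11, Foxp3, Xist and Eif2s3y. Further members named in the text were chosen after their values were seen. Summed list signals are log2 of the sum of linear values. Promoter sequences are from RefSeq, and all 3 Ifitm genes matched. The fit was tested on simulated data with the genes and array numbers of this comparison (12393 genes). It recovered 30% of rises of 0.5, 86% of rises of 1, 100% of rises of 2 and 90% of falls of 1 on the log2 scale, with 4 false calls. Errors were normal and independent between genes, and 50 genes changed at each size. In the data 32.9% of genes were called, a far larger share, so recovery and false calls there may differ. The alternatives were other normalizations (quantile, median centring, scaling to 18 hybridization spike probe sets), leaving out the dimmest 40% of probe sets, averaged probe sets, other variance settings, weighted arrays, a block for the replicate number, a threshold of 0.01 and leaving out each array.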

Additional observations from a re-analysis of the deposited data

How the results depend on the processing

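The Ifitm changes kept their direction in every alternative run, from 1.85 to 2.22 for Ifitm1, 2.63 to 2.83 for Ifitm2 and 1.53 to 1.76 for Ifitm3. Leaving out each array gave 1.85 to 2.17, 2.63 to 2.72 and 1.53 to 1.66. Under spike scaling Ifitm2 (2.83) and Ifitm3 (1.76) moved by more than the SD between replicates, and 944 genes were lower. At a threshold of 0.01, 1206 genes were lower. Of 512 list counts under alternatives, 442 stayed within 1.5 times of the reported count. Counts that stayed at 0 are included in the 442, as are small moves such as 3 to 2. The titles do not say whether the replicate numbers pair the samples. Deviations from the group means correlated at 0.066, -0.059 and 0.088 for same-numbered arrays and at -0.145 to 0.093 for other pairs. These values can neither show nor exclude a pairing. With the replicate block 2098 genes were higher and 1961 lower, and 1 CD225 relative, Ifitm6, was called higher. Ifitm6 was also called with array weights, quantile normalization and spike scaling (1 higher each) and without USP7-titled replicate 1 (0.60).

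Under spike scaling the counts that moved by more than 1.5 times were, for rises, 5 IFITM partners, 2 Treg and T cell identity genes, 4 receptor and signalling genes and 6 neutrophil markers. For falls they were 6 Treg and T cell identity genes, 1 dendritic cell marker, 1 interferon gamma-induced gene, 1 ligand, 6 receptor and signalling genes, 1 restriction gene and 9 type I interferon-stimulated genes. With quantile normalization 1 ligand fell, and 1 receptor or signalling gene and 1 restriction gene rose. With averaged probe sets 1 CD8 T or NK marker, 2 endothelial or stromal markers, 1 restriction gene and 1 platelet or erythroid marker fell, and 1 receptor or signalling gene rose. Without the variance trend 6 identity genes, 1 dendritic cell marker, 3 interferon gamma-induced genes and 1 platelet or erythroid marker fell, and 1 receptor or signalling gene, 1 restriction gene and 3 type I interferon-stimulated genes rose. At a threshold of 0.01, 3 dendritic cell markers, 1 receptor or signalling gene and 1 restriction gene rose, and 1 dendritic cell marker, 0 endothelial or stromal markers, 4 interferon gamma-induced genes and 1 ligand fell. Without the dimmest probe sets, which tests fewer genes, 0 B cell markers and 0 CD225 relatives and 1 ligand fell, and 2 CD8 T or NK, 3 dendritic cell, 0 endothelial or stromal, 11 macrophage and 1 neutrophil markers rose. Other causes were not tested.

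Leaving out 1 array gave, for rises, 0 to 1 CD225 relatives, 3 to 5 CD8 T and NK, 3 to 4 dendritic cell and 1 to 2 endothelial and stromal markers, 1 to 2 receptor and signalling genes and 1 to 2 restriction genes. For falls it gave 1 to 2 B cell, 1 to 3 dendritic cell, 0 to 2 endothelial and stromal and 0 to 1 neutrophil markers, 4 to 7 interferon gamma-induced genes and 1 to 2 ligands. Of 128 named genes followed through the alternatives, 17 lost their call without some array, and Vcp alone reversed, at -0.26 with averaged probe sets. Some list members named in the text were not among these 128. Averaging also ended the calls of Fasl, Hdac11, Jak2, Prf1, Ptpn11 and Samhd1. Without the variance trend those of Adgre1, Apobec3, Ccr7, Il2ra, Jak2, Ms4a1, Setd7 and Vcp ended. Quantile normalization ended those of Apobec3, Ifnab, Jak2, Pkp3 and Vcp. Spike scaling ended those of Ccr7, Cd274, Ifnab, Ifnar1, Il2ra, Samhd1, Setd7 and Sigirr. No detection call was used, so signal over background limits the dim genes.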
